A study of Mus musculus with 20 samples.

Results

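The livers described here came from the 10 control mice of a study of hepatocyte-specific loss of Hsd17b12, an enzyme of very-long-chain fatty acid elongation. They are all mice whose name begins with WT, 10 of the 20 mice in the series. Their genotype is HSD17B12lox/lox;Alb-CreWT/WT: both Hsd17b12 alleles carry loxP sites and no Cre is present, so these mice share the floxed alleles with the knockout mice and differ from an unmodified wild type in that respect. The knockouts carry Cre under the albumin promoter (HSD17B12lox/lox;Alb-CreCre/WT) and enter no comparison below. All mice were males of the strain labelled LiB12cKO, aged 2 months, and total RNA came from the left lateral lobe. Each library is a different mouse, named by its number (WT_389, WT_390, WT_406, WT_407, WT_408, WT_409, WT_415, WT_427, WT_429 and WT_441). The labels give no litter, cage, time of collection, feeding state or sequencing lane, so none of these could be set beside the values below.

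The adult liver makes most plasma proteins, clears drugs and ammonia, and switches between storing and releasing glucose and lipid as the animal feeds and fasts. Its transcriptome follows the daily clock, feeding, the male or female pattern of growth hormone release, and infection, so expression can differ between healthy animals of the same sex and age. Hepatocytes along the lobule also divide their tasks: periportal cells favour urea production and gluconeogenesis, and pericentral cells favour glutamine synthesis and drug metabolism.

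Between 19676907 and 29124124 sequenced fragments per mouse were assigned to genes, which is 80.1% to 84.9% of the fragments. Levels are given on 2 deposited scales: RPKM (fragments scaled for depth and for gene length), used to compare genes, and the normalized value (fragments scaled for depth by 1 factor per mouse, not for gene length), used to compare mice. Of 20914 genes in the count table, 19948 had a fragment in these livers and 12475 had a mean normalized value of 1 or more. The label was checked against cell type markers: all 14 hepatocyte markers passed that level and their summed normalized value lay between 109276 and 134361. The Y-linked Ddx3y (66.5 to 85.3) and Uty (14.7 to 23.0) were present in every mouse, and Xist stayed at 0.0921 to 5.25. The summed level of 10 skeletal muscle markers was 764 in WT_389 and 201 in WT_441 against 0.672 to 8.33 in the other 8 mice. Results that rest on those 2 livers are therefore also given without them.

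Albumin, the main carrier protein of plasma, was the most abundant transcript by length-scaled level at 29031 ± 4735 RPKM (mean ± SD, n = 10; chr5:90460889-90476603, mm10). COX1, the mitochondrially encoded core subunit of cytochrome oxidase, followed at 20898 ± 3284 RPKM, and Apoe, an apolipoprotein of remnant particles, at 18168 ± 1822 RPKM. Apoa2 and Apoa1, the main proteins of high-density lipoprotein, stood at 14329 ± 2343 and 10245 ± 1388 RPKM. Of the 25 highest genes 10 were Mup genes, described next, and most others encode secreted plasma proteins or mitochondrial subunits, an exception being Fabp1, the cytosolic fatty acid-binding protein, at rank 20. Expression was concentrated, since 105 genes held 50% of all assigned fragments and 3389 held 90%. A mean of at least 1 RPKM was reached by 10975 genes, at least 100 by 766 and at least 1000 by 92.

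By gene class, the 22 major urinary proteins (Mup genes), small pheromone carriers that male mice secrete into urine, took the largest share of the classes examined, 10.2% ± 5.04 of assigned fragments (mean ± SD over 10 mice). Mitochondrially encoded genes took 9.11% ± 0.934, albumin 5.09% ± 1.10, serpins (plasma protease inhibitors) 5.01% ± 0.487 and apolipoproteins 4.75% ± 0.257. These 5 classes differed in how stable their share was. Apolipoproteins ranged from 4.48% to 5.30% and serpins from 4.48% to 5.92%, whereas the Mup share ranged from 2.26% to 16.7%. Plasma transport proteins such as transthyretin and transferrin held 2.79% ± 0.317, coagulation factors with fibrinogen 2.03% ± 0.331, complement 1.37% ± 0.166 and cytochromes P450, the enzymes of drug and steroid oxidation, 1.88% ± 0.209. Cytosolic ribosomal protein genes together held 0.523% ± 0.0556. Metallothioneins, which bind zinc and copper, held only 0.0764% ± 0.0845 but spanned 0.00251% to 0.217%.

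**Figure D1:**
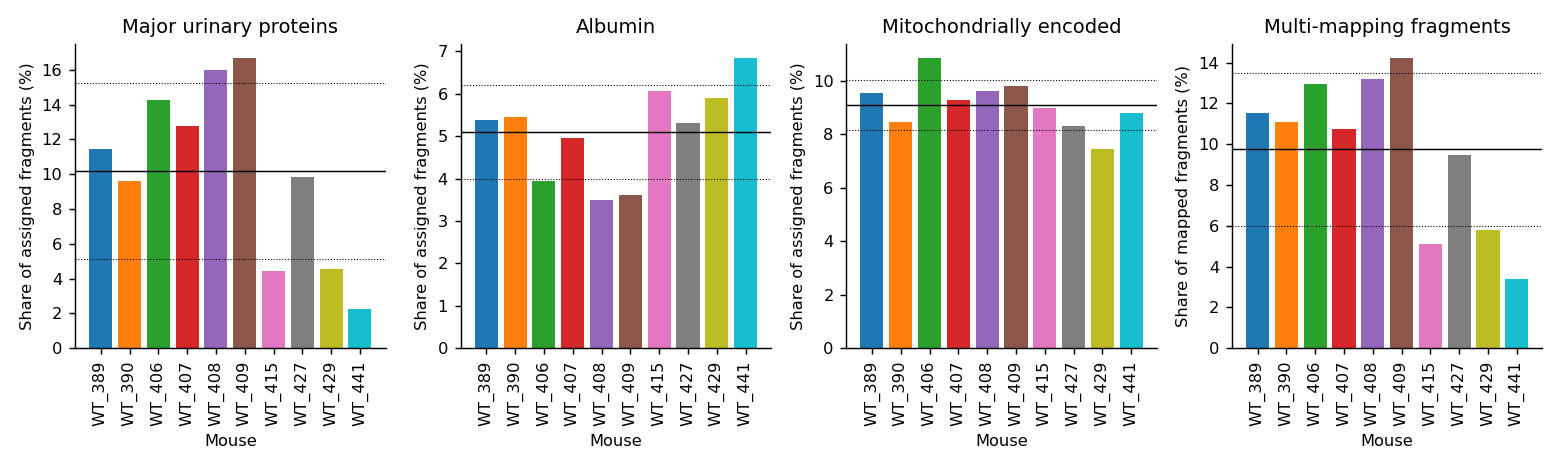
Share of assigned fragments (percent) held by the 22 major urinary proteins, albumin and the mitochondrially encoded genes, and percent of mapped fragments that map to several places, 1 bar per mouse; the line is the mean and the dotted lines are 1 SD to either side. WT_415, WT_429 and WT_441 hold the 3 lowest Mup shares, 4.44%, 4.56% and 2.26%.

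The Mup share separated 3 livers from the rest. WT_408 and WT_409 held 16.0% and 16.7%, WT_389, WT_390, WT_406, WT_407 and WT_427 held 9.60% to 14.3%, and WT_415, WT_429 and WT_441 held 4.44%, 4.56% and 2.26%. All 22 Mup genes, which lie in 1 cluster on chromosome 4 between positions 59956806 and 62150841 (mm10), had these 3 livers as their 3 lowest, and 20 of the 22 were lowest in WT_441. Their coefficients of variation (CV, the SD over mice divided by the mean) ran from 0.250 for Mup3 to 0.800 for Mup17, with a median of 0.594. Mup17 spanned 117 to 10450.0 in normalized value and Mup20, which encodes the pheromone darcin, 2892 to 14096. Mup genes are near-identical copies and the counts include fragments that map to several places, so the split between individual Mup genes is uncertain and the family sum is the safer value. The percent of mapped fragments that map to several places moved with it, at 3.40% to 5.81% in the 3 livers and 9.45% to 14.2% in the other 7, and its part in the Mup values was not tested. Albumin ran the other way, from 3.50% in WT_408 to 6.83% in WT_441. Taken over fragments outside the Mup genes, its share still ranged from 4.17% in WT_408 to 6.99% in WT_441.

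Most genes differed between animals by more than counting error. Of 12475 genes, 11366 (91.1%) had raw counts more dispersed around their depth-scaled mean than Poisson counting allows (index of dispersion against chi-square with 9 degrees of freedom, Benjamini-Hochberg adjusted p under 0.05). The sizes were mostly modest: the median CV was 0.153, with 0.0666 at the 5% and 0.470 at the 95% point of the distribution. A CV of 0.5 or more was found for 517 genes (4.14%), called variable below, and a CV of 0.1 or less for 2728 (21.9%), called steady. Without WT_389 and WT_441 3189 genes were steady, and the variable genes numbered within 1.5 times of 517. Since labels name no technical repeats of a mouse, differences between animals and between library preparations cannot be told apart.

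Among genes of mean 10 or more, Mcmbp, which binds the replicative helicase, had the lowest CV, 0.0245, with values of 26.7 at the lowest, 27.5 at the median and 28.4 at the highest. Tcf25 (0.0251), the RNA export factor Chtop (0.0255), the ubiquitin ligase Rnf167 (0.026) and the ubiquitin-conjugating enzyme Ube2d3 (0.0266) came next. All were at or near the resolution of counting: for Mcmbp counting error alone gives a CV of 0.0436. Atp5pb, a subunit of ATP synthase, was steady at a higher level, 299.8 to 324, with a CV of 0.0283. These low values depended on the authors' scaling: when counts were scaled by library size alone, all 15 of the lowest CVs exceeded 1.5 times their value, at 0.0494 to 0.0973.

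**Figure D2:**
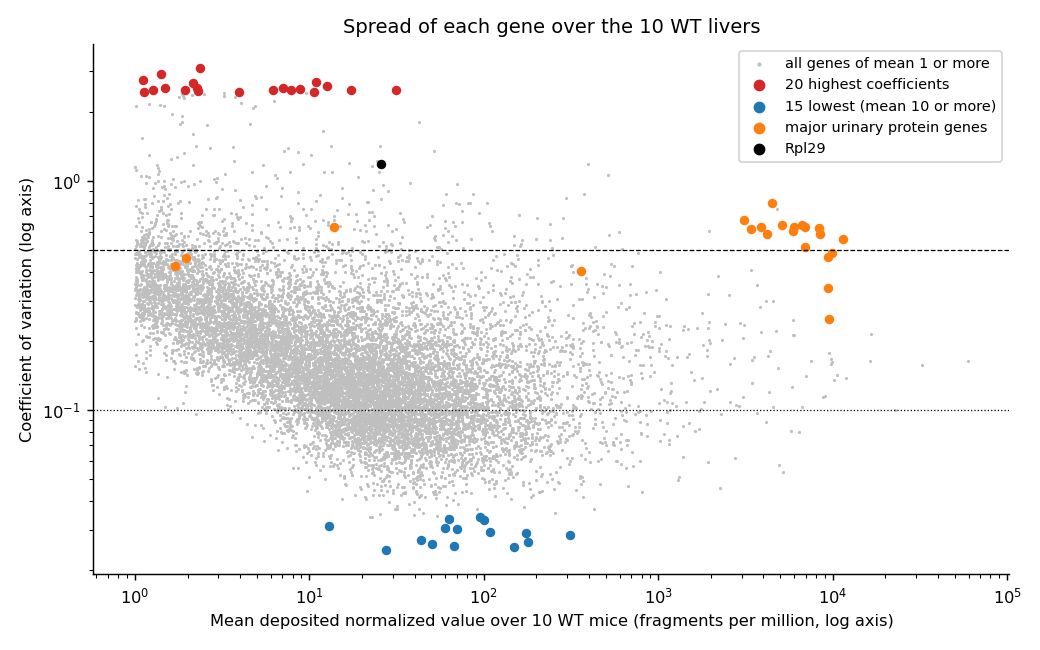
CV over the 10 mice against mean normalized value for genes of mean 1 or more, both axes logarithmic, with the 20 highest CVs, the 15 lowest, the Mup genes and Rpl29 coloured and lines at CVs of 0.5 and 0.1. The Mup genes combine high means with CVs of 0.250 to 0.800, far above the median of 0.153.

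The highest CVs came from skeletal muscle genes in 2 livers. Of the 20 highest, 18 belonged to a group of 36 genes that were at least 5 times higher in both WT_389 and WT_441 than in every one of the other 8 mice, all 36 of them variable (6.96% of the 517). Acta1, skeletal muscle actin (chr8:123891767-123894736), measured 247 in WT_389, 65.5 in WT_441, 2.07 in WT_406 and at most 0.147 in the others. Ckm, muscle creatine kinase, measured 61.7 in WT_389 and 15.8 in WT_441. The myosins Myh1 and Myh4 and the calcium pump Atp2a1 had the same order of mice, at 93.8 and 14.95, 71.9 and 22.4, and 137 and 33.1. All 10 muscle markers had a mean of 1 or more, and the hepatocyte marker sums of the 2 livers, 126588 and 125316, lay within the range of the other 8. Bulk RNA does not separate muscle RNA carried in with the tissue from expression by liver cells.

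Pdk4, a kinase that restrains pyruvate oxidation in fasting and is abundant in muscle, followed the same 2 livers. It measured 39.8 in WT_389, 12.2 in WT_441 and 8.42 in WT_415, and 2.32 to 5.33 in the other 7. To describe covariation, each gene's counts were regressed on log2(normalized value + 1) of an anchor gene with edgeR's quasi-likelihood test, so that a slope is the log2 change per log2 unit of the anchor, and p-values were adjusted over 12161 genes. On Pdk4, 24 genes (0.197%) passed adjusted p under 0.05, all with positive slopes. They included the muscle intermediate filament Des (slope 0.96, SE 0.0791, edgeR adjusted p = 0.000119), the ADP/ATP carrier Slc25a4 (slope 1.03, SE 0.053, edgeR adjusted p = 1.33e-06) and the myosin light chain Mylpf (slope 1.72, SE 0.187, edgeR adjusted p = 0.00464). Without both muscle-high livers no gene passed, against 985 genes at an unadjusted p under 0.05 and 88 by DESeq2 with all 10 mice. Leaving out WT_389 alone raised the count to 54. The muscle marker sums given above move with these calls. All 12 Kupffer cell and macrophage, all 10 sinusoidal endothelium, all 11 stellate cell and fibroblast and all 4 red blood cell markers tested also had positive slopes on Pdk4, of which Des, a stellate as well as a muscle gene, was called. Over all genes 49.9% had positive slopes on Pdk4. Stab1, of sinusoidal endothelium, and Pde2a were among the nearest genes to Pdk4 by rank (Spearman's rho 0.98 and 0.98 over 10 mice). The part of these cell types was not tested.

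Some genes switched between levels with no mouse in between. Rpl29, a protein of the large ribosomal subunit (chr9:106429539-106431567), measured 1.03 to 2.45 in 6 mice and 59.3 to 63.1 in WT_408, WT_409, WT_415 and WT_441. Rps3a1, of the small subunit (chr3:86137940-86142668), measured 16.3 to 19.7 in 6 mice and 42.3 to 48.4 in WT_406, WT_407, WT_408 and WT_441. The high mice overlapped only in WT_408 and WT_441. The ribosomal protein list's median CV was 0.125 and of its 84 members only Rpl29 reached 0.5. Rps3a1 stayed below that mark too, so a CV under 0.5 does not show that a member lacks 2 levels. Both genes have near-identical processed copies elsewhere in the genome, so how fragments were divided among copies makes these 2 levels uncertain. Xlr4a, an X-linked gene of a family of near-copies, measured 13.1 in WT_407 and at most 0.188 elsewhere. Haemoglobin transcripts, which come from red blood cells, formed a further group: Hbb-b1 was 40.6 to 70.5 in WT_389, WT_390 and WT_406, 35.3 and 29.6 in WT_415 and WT_441, and 5.64 to 10.7 in the rest.

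**Figure D3:**
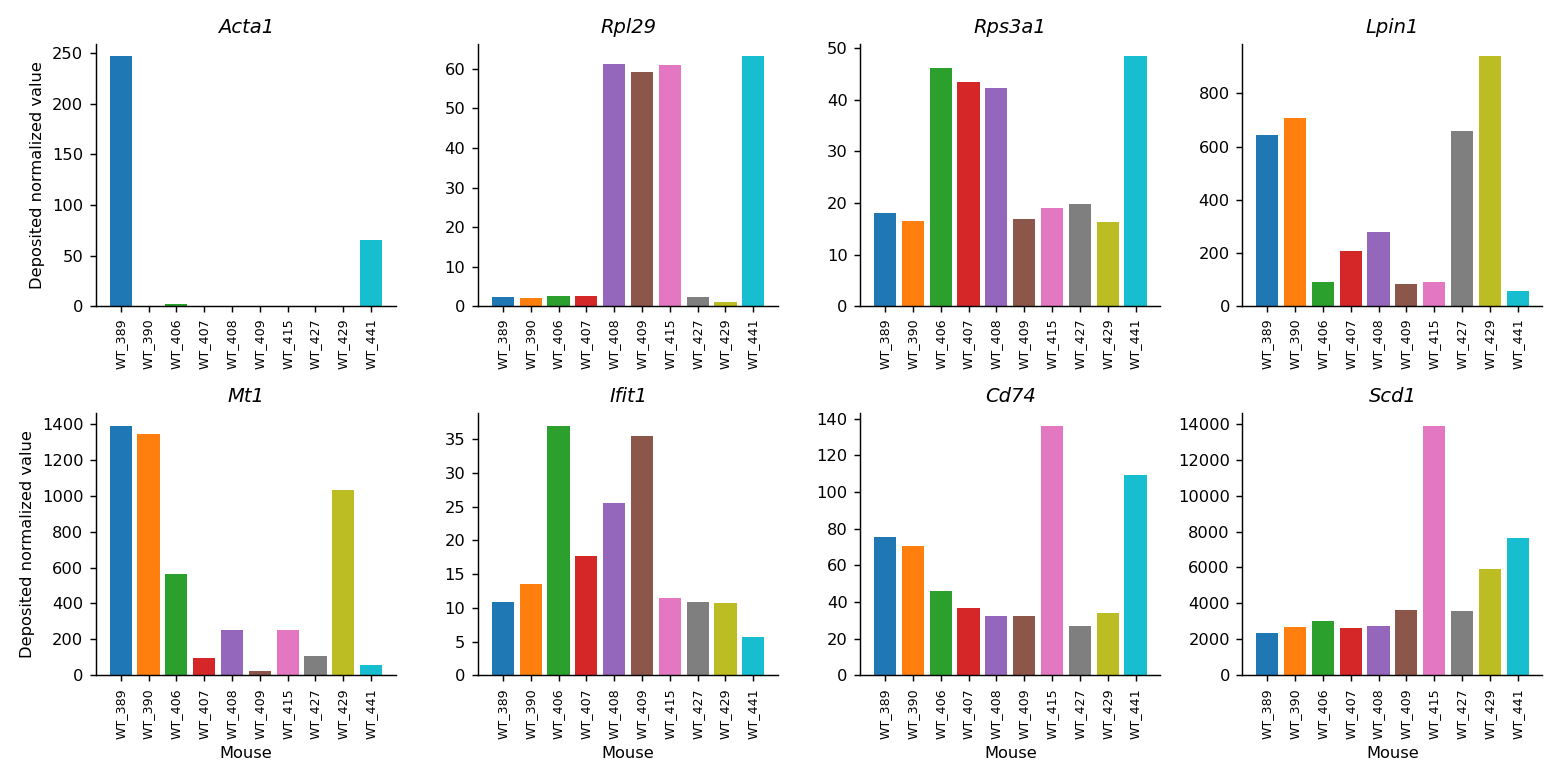
Normalized value in each mouse for Acta1, Rpl29, Rps3a1, Lpin1, Mt1, Ifit1, Cd74 and Scd1, 1 bar per mouse on a linear axis from 0. Different mice are high for different genes: WT_389 and WT_441 for Acta1, WT_408, WT_409, WT_415 and WT_441 for Rpl29, and WT_415 for Scd1.

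Ranked by the median CV of their members, 27 gene lists spanned a broad range around the median of 0.153 over all genes. MHC class II had the highest median (0.669, with 7 of 8 members variable), followed by female-biased liver genes (0.554, 4 of 8), immediate early genes (0.544, 8 of 13), the circadian clock (0.437, 8 of 21), interferon-responsive genes (0.430, 6 of 26) and fasting and glucose metabolism (0.401, 8 of 21), each against 4.14% variable over all genes. Without the 2 muscle-high livers the female-biased median was 0.331 and the MHC class II median 0.765. At the other end stood the proteasome (0.0848, with 24 of 37 members steady), the nuclear-encoded respiratory chain and ATP synthase (0.0983, 39 of 76 steady), fatty acid elongation (0.122, 2 of 7 steady) and cytosolic ribosomal proteins (0.125, 26 of 84 steady), against 21.9% steady over all genes. Single members of these lists stood out. Psmb9 and Psmb8, the inducible catalytic subunits of the immunoproteasome, had proteasome's highest CVs, 0.335 and 0.258. Cox6a2 and Cox7a1, the muscle forms of cytochrome oxidase subunits, had the respiratory chain's highest, 2.48 and 0.743, and both were highest in WT_389.

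**Figure D4:**
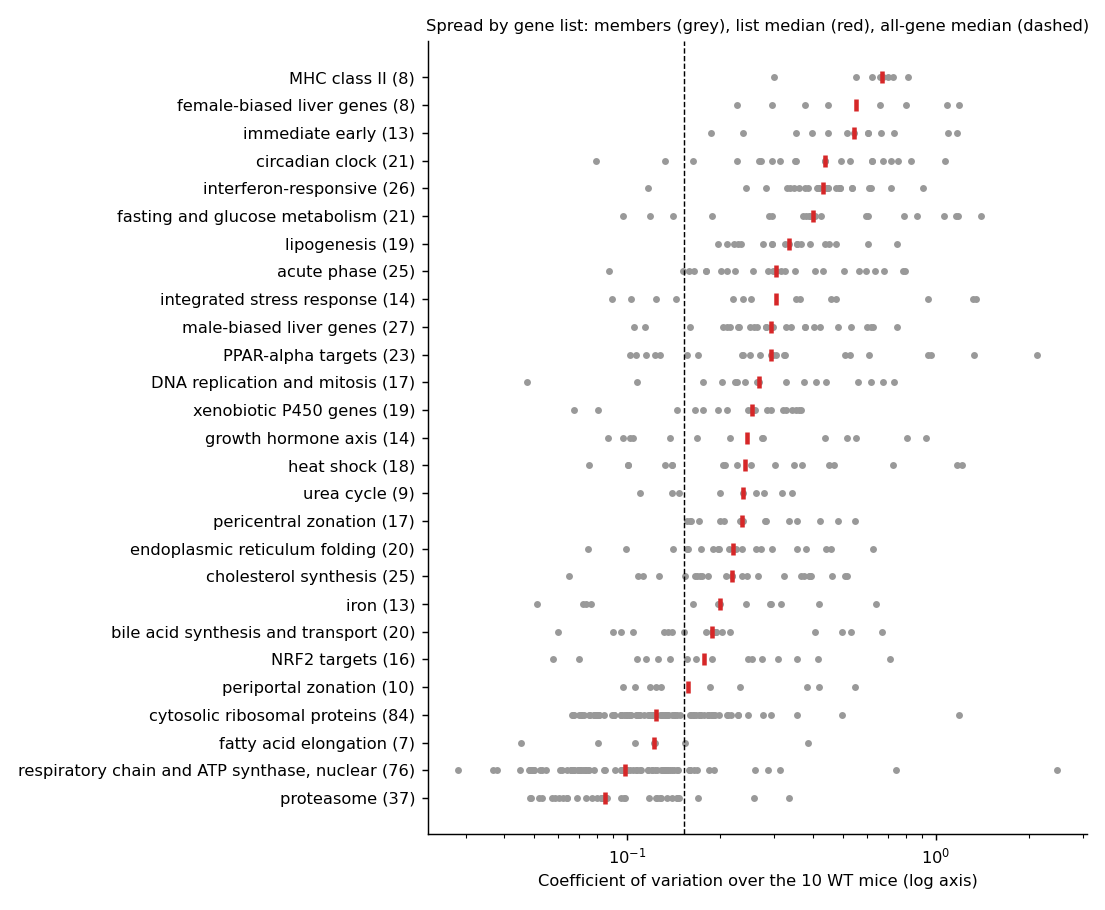
CV over the 10 mice of each member (grey) and the median of each of 27 gene lists (red) on a logarithmic axis, with the median of all genes of mean 1 or more dashed. MHC class II is highest at a median of 0.669 and the proteasome lowest at 0.0848.

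The circadian clock list held genes with nearly reversed orders of mice, such as Dbp and Arntl. In the clock, Arntl with Clock or Npas2 drives transcription through E-box sequences, Per and Cry proteins repress that drive, and Dbp and Tef act on D-box sequences that Nfil3 also binds. Upstream sequence is shown for 3 clock genes that passed the test on Dbp described next, Per3 and Tef with positive slopes and Cry1 with a negative one, taken from RefSeq (GRCm38.p6), as the 250 bases before the annotated start. Capitals mark an E-box, CACGTG, or a D-box, taken here as TTATGTAA, TTACATAA, TTACGTAA or TTATATAA, searched on both strands. The Per3 stretch, chr4:151044666-151044915 on the minus strand, holds 2 D-box matches. The Tef stretch, chr15:81802423-81802672 on the plus strand, and the Cry1 stretch, chr10:85185055-85185304 on the minus strand, hold 1 E-box match each.
Per3: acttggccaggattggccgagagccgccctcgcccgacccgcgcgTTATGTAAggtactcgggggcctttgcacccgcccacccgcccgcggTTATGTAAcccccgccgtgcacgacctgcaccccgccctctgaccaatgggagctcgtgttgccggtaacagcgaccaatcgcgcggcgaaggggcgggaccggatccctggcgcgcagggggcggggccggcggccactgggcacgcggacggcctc
Tef: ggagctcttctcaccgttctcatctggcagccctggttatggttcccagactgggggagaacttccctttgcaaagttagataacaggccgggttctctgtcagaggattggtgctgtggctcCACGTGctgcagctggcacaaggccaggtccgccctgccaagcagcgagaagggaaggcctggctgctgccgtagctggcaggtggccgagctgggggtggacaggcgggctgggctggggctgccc
Cry1: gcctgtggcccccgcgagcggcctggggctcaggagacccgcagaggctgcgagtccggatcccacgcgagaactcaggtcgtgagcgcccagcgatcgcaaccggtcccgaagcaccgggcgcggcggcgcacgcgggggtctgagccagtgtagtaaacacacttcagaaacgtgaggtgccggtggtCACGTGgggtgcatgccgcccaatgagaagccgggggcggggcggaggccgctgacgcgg
Over 32851 such windows of all genes, 6.02% hold the E-box and 1.43% a D-box. Of the 21 clock genes 18 were matched to a window, 5 of which hold an E-box and 1, that of Per3, a D-box. Dbp itself has neither in this window. Nor does Npas2, which also passed the test on Dbp, with a negative slope, and whose stretch is not shown. A match describes these letters and does not show that a factor binds there.

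Dbp (chr7:45705247-45710203) measured 3.09 and 3.95 in WT_389 and WT_390, 13.9 in WT_415, 19.4 in WT_408, 24.9 in WT_406, 36.4 in WT_441, 45.9 in WT_409, 50.4 in WT_407, 63.6 in WT_429 and 69.5 in WT_427. Arntl (chr7:113207465-113314126) ran in nearly the reverse order, at 25.6 and 29.8 in WT_389 and WT_390, 22.6 in WT_415 and 2.94 and 3.66 in WT_427 and WT_429. The 2 livers with the lowest Dbp thus had the highest Arntl, and the 2 with the highest Dbp had the lowest Arntl. Per3 followed Dbp, from 2.15 in WT_390 to 21.3 in WT_427, and Npas2 ran against it, from 0.589 in WT_427 to 7.32 in WT_389. On Dbp, 12 of 12161 genes passed the test (0.0987%), 7 with positive and 5 with negative slopes (2 and 4 with library size alone as scaling). Of 18 other clock genes tested, 4 passed: Per3 (slope 0.74, SE 0.0682, edgeR adjusted p = 0.00134) and Tef (slope 0.25, SE 0.0359, edgeR adjusted p = 0.0272) with positive slopes, and Npas2 (slope -0.67, SE 0.0818, edgeR adjusted p = 0.0138) and Cry1 (slope -0.29, SE 0.0467, edgeR adjusted p = 0.045) with negative ones. Gys2, liver glycogen synthase, is no clock gene but followed Dbp (slope 0.33, SE 0.042, edgeR adjusted p = 0.0138), with 89.4 in WT_389 and 266 in WT_429. Insig2, which retains the sterol sensor in the endoplasmic reticulum, had a negative slope of -0.29 (SE 0.0431).

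Per3 was called in all 10 fits that leave out 1 mouse, Npas2 in 8, Gys2 in 7, Tef in 5 and Cry1 in 2. The count of called genes was 1 without WT_389, 1 without WT_390, 5 without WT_408, 6 without WT_409, 3 without WT_427 and 23 without WT_429, and 1 without both WT_389 and WT_441. Arntl, at a CV of 0.676, did not pass on Dbp, nor did Nr1d1, a repressor of Arntl, whose low values were confined to WT_389 and WT_390 (69.9 and 77.5 against 147 to 208). Ranked by Spearman's rho over the 10 mice among 9079 genes of mean 5 or more, the nearest to Dbp were Per3 (0.98), Tef (0.96), Gys2 (0.95) and Kalrn (0.95), and the farthest Stra6l (-0.98) and Net1 (-0.96). The median size of rho with Dbp over all these genes was 0.28.

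**Figure D5:**
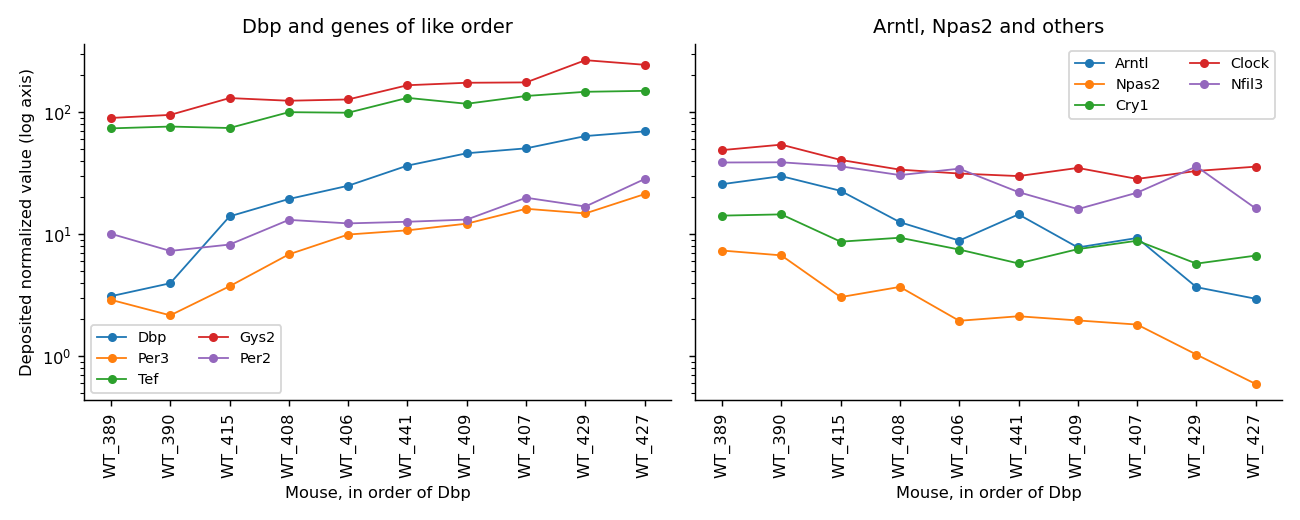
Normalized value (logarithmic axis) of clock genes and of Gys2, which is no clock gene, in each mouse, with mice in the order of their Dbp value. Dbp, Per3, Tef, Gys2 and Per2 are on the left and Arntl, Npas2, Cry1, Clock and Nfil3 on the right. From left to right Dbp goes from 3.09 to 69.5 and Per3 from low to high, while Npas2 and Cry1 go from high to low.

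Another order of mice was shared by Cyp7a1, Lpin1 and Fkbp5. Cyp7a1, the rate-limiting enzyme of the classical bile acid pathway (chr4:6265612-6275631), measured 244 and 233 in WT_389 and WT_390, 255 and 304 in WT_427 and WT_429, and 56.6 to 149 in the other 6. Lpin1, a phosphatidate phosphatase and coactivator induced by fasting, measured 642, 706, 660.3 and 939 in the same 4 mice and 55.2 to 278 in the other 6. Fkbp5, a glucocorticoid-induced cochaperone, measured 170.1, 185, 108 and 141 against 14.8 to 63.6. For all 3 genes the 4 livers WT_389, WT_390, WT_427 and WT_429 lay above the other 6 with no overlap. These livers were picked as the 4 highest for Cyp7a1, and Lpin1 and Fkbp5 both passed the test on Cyp7a1 described next. The shared split therefore follows in part from the choice of genes, and the share of all genes that make it is not given here.

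On Cyp7a1, 189 genes passed (1.55%), 108 with positive and 81 with negative slopes, against 45 positive and 93 negative with library size alone as scaling. Lpin1 had the smallest p (slope 1.82, SE 0.11, edgeR adjusted p = 1.06e-05). Fkbp5 (1.49 (SE 0.175)), the transcription factor Cebpd (1.04 (SE 0.129)), the deubiquitinase and clock output Usp2 (1.03 (SE 0.128)) and Por, the electron donor of P450 enzymes (0.66 (SE 0.0851)), also had positive slopes. Among 20 fasting and glucose genes 4 passed, all positive: Lpin1, Foxo1, Ppp1r3b and Slc37a4, the glucose 6-phosphate transporter (slope 0.48, SE 0.0684, edgeR adjusted p = 0.00606), and 17 of the 20 had positive slopes, against 48.6% over all genes. Of 19 other bile acid genes tested, only Nr0b2, a repressor of Cyp7a1, was called, with a negative slope, and 11 had positive slopes. Gdf15, a stress hormone, was called with a negative slope of -0.88 (SE 0.132), at 6.79, 6.05, 4.59 and 4.74 in the 4 livers and 11.4 to 18.7 in the others. Of the 189 genes, 47 were called in all 10 fits that leave out 1 mouse, Lpin1, Fkbp5, Foxo1, Por, Slc37a4, Usp2, Klf15 and Cebpd among them. The count was 94 without WT_389, 56 without WT_390, 124 without WT_406, 107 without WT_408, 93 without WT_415 and 86 without WT_427, and 91 without both muscle-high livers.

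WT_389 and WT_390 stood apart from WT_427 and WT_429 within that group. Ddit4, an inhibitor of mTORC1, measured 188 and 173 in WT_389 and WT_390, 34.7 and 52.2 in WT_427 and WT_429, and at most 16.0 in the rest. Cdkn1a, the cell cycle inhibitor p21, measured 70.5 and 72.5 in WT_389 and WT_390 and at most 20.3 elsewhere. The clock genes ran the other way in the 2 pairs, with Dbp lowest in WT_389 and WT_390 and highest in WT_427 and WT_429. Angptl8, a feeding-induced regulator of lipoprotein lipase, was 8.09, 8.57, 10.1 and 20.1 in the 4 livers and 48.0 to 121 in the other 6. Angptl8 was named after its values were seen, so its lack of overlap is no separate support for the grouping.

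The metallothioneins Mt1 and Mt2 divided the mice differently. Mt1 (chr8:94179089-94180327) measured 1390.5, 1344 and 1031 in WT_389, WT_390 and WT_429, 563 in WT_406, 253 and 252 in WT_408 and WT_415, and 22.5 to 105 in WT_407, WT_409, WT_427 and WT_441. Mt2 (chr8:94172618-94173567) spanned 9.35 in WT_409 to 1183 in WT_389. Both genes had their highest value in WT_389 and their lowest in WT_409, and their CVs were 1.06 and 1.18. Metallothionein genes respond to zinc through metal response elements and also to glucocorticoids, so their upstream 250 bases are shown, from RefSeq (GRCm38.p6), chr8:94178839-94179088 and chr8:94172368-94172617, both on the plus strand. Capitals mark matches to TGCACNC or TGCGCNC on either strand, letters present in 21.4% of all such windows.
Mt1: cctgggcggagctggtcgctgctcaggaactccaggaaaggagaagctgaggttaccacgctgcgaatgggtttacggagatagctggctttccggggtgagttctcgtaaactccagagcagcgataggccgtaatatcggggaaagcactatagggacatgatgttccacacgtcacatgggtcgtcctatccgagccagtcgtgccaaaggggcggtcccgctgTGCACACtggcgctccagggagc
Mt2: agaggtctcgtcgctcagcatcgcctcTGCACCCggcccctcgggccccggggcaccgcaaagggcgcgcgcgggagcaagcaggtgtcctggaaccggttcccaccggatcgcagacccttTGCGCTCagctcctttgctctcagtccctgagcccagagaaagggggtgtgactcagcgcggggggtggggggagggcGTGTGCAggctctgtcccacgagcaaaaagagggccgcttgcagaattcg
The Mt1 window holds 1 match and the Mt2 window 3. Both windows stop at the annotated gene start, so matches beyond either end are not counted. The 2 counts therefore do not compare the genes' full sets of elements.

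Interferon-responsive genes were followed through Ifit1. They are induced by type I and III interferons and encode antiviral proteins such as Rsad2 and the Ifit family. Ifit1 (chr19:34640889-34650009) measured 37.0 and 35.6 in WT_406 and WT_409, 25.6 in WT_408, 17.7 in WT_407, 10.7 to 13.6 in 5 mice and 5.64 in WT_441. WT_406, WT_407, WT_408 and WT_409 were the 4 highest. Irf7, the master regulator of the response, gave the same split, 57.5 to 67.4 in those 4 mice and 21.4 to 31.7 in the other 6. On Ifit1, 86 genes passed (0.707%), 55 positive and 31 negative. The split depended on the scaling: with library size alone 64 were positive and 753 negative, and over all genes tested 24.03% had positive slopes in place of 49.2%. Of 25 interferon-responsive genes tested, 13 passed, all positive, 24 had positive slopes and the median slope was 0.62, against 14, 23 and 0.53 with library size alone. Oasl1 had the smallest p (slope 0.77, SE 0.0601, edgeR adjusted p = 0.000171), followed by Ifit3 (slope 0.79, SE 0.0831, edgeR adjusted p = 0.00248), with Isg15 at 0.85 (SE 0.109) and Usp18 at 0.85 (SE 0.102). Genes outside the list had slopes in both directions. The organic anion transporter Slco1a4 (-1.29 (SE 0.144)) and the iron exporter Slc40a1 (-0.35 (SE 0.044)) had negative slopes, and Tpmt, thiopurine methyltransferase, a positive one of 0.35 (SE 0.0506). In all 10 fits that leave out 1 mouse 12 genes were called: Dhx58, Ifit3, Ifitm3, Irf7, Isg15, Oasl1, Rsad2, Rtp4, Slc40a1, Slco1a4, Tpmt and Usp18. The count was 47 without WT_390, 19 without WT_406, 32 without WT_407, 17 without WT_408, 34 without WT_409, 47 without WT_415, 163 without WT_427, 29 without WT_429 and 55 without WT_441, and 29 without both muscle-high livers. Not every interferon gene shared the order of mice: the chemokine Cxcl10 was highest in WT_415 at 11.2, and Gbp2, a guanylate-binding protein, also in WT_415 at 12.8. Markers of other cell types ran against Ifit1, with negative slopes for 10 of 10 sinusoidal endothelium, 11 of 12 Kupffer cell and macrophage and 10 of 11 stellate cell and fibroblast markers, none of them called, and their part was not tested.

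MHC class II genes present antigen on macrophages, dendritic cells and B cells, and Cd74 is the chaperone of their chains. Cd74 measured 136 in WT_415, 109 in WT_441, 75.2 and 70.3 in WT_389 and WT_390, and 27.0 to 45.9 in the other 6. H2-Ab1 (chr17:34263227-34269418) had the same 4 mice on top, at 60.5, 43.2, 27.3 and 25.02, against 11.4 to 15.5. On Cd74, 74 genes passed (0.609%), 66 positive and 8 negative. Of 7 MHC class II list members tested, 6 passed with a median slope of 1.00: H2-Aa (slope 1.08, SE 0.0601, edgeR adjusted p = 1.32e-06), H2-Ab1 (slope 1.07, SE 0.0551, edgeR adjusted p = 9.43e-07), H2-Eb1 (slope 1.08, SE 0.0633, edgeR adjusted p = 1.5e-06), H2-DMa, H2-DMb1 and the protease Ctss. Laptm5, a lysosomal protein of blood cells (0.57 (SE 0.0694)), and Cybb, the phagocyte oxidase (0.57 (SE 0.0718)), covaried with them. H2-Aa, H2-Ab1, H2-Eb1 and Laptm5 were called in all 10 fits that leave out 1 mouse. The count was 45 without WT_406, 41 without WT_407, 18 without WT_408, 17 without WT_409, 8 without WT_415, 23 without WT_427, 256 without WT_429 and 11 without WT_441, and 6 without both muscle-high livers. Of the immune marker lists, the T and NK cell sum was 23.1 in WT_415 and the B and plasma cell sum 24.03, both the highest of the 10 mice, while WT_441 had 13.5 and 20.1. The sum of 12 Kupffer cell and macrophage markers, all of mean 1 or more, was highest in WT_389 at 393 and stood at 361 and 323 in WT_415 and WT_441, and the neutrophil marker Ly6g was at 0 in all 10. All 12 Kupffer cell and macrophage, 10 sinusoidal endothelium, 11 stellate cell and fibroblast and 4 red blood cell markers had positive slopes on Cd74, against 48.2% over all genes. Of these markers only Rgs5, a stellate cell and pericyte gene, was called. Igkc, a B and plasma cell marker, was called as well (slope 0.75, SE 0.149, edgeR adjusted p = 0.0462). The part of these cells in the MHC class II values was not tested, and in bulk tissue more cells and more RNA per cell cannot be told apart.

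Lipid synthesis genes differed in which mice were high. Scd1, the desaturase that makes oleate (chr19:44394450-44407709), measured 13893 in WT_415, 7630.5 in WT_441, 5906 in WT_429 and 2368 to 3632 in the other 7. Fasn, fatty acid synthase, was instead highest in WT_427 at 229.9 and lowest in WT_389 at 71.2. Sqle, squalene epoxidase of sterol synthesis, was also highest in WT_427, at 48.0, and lowest in WT_406, at 14.3. Of 24 cholesterol synthesis genes 23 had positive slopes on Sqle, against 47.3% over all genes. Of 18 lipogenesis genes 16 had positive slopes on Fasn, against 48.6% over all genes. Other lists ran one way about as strongly. On Sqle 19 of 20 endoplasmic reticulum folding genes had positive slopes and 64 of 75 nuclear respiratory chain genes negative ones. On Fasn 24 of 25 cholesterol synthesis genes had positive slopes. On either anchor edgeR called 0 genes, against 1161 and 1531 genes at an unadjusted p under 0.05 and 34 and 233 by DESeq2. Across the 10 mice Sqle and Fasn had r = 0.85 (permutation p = 0.00161, adjusted over 66 anchor pairs 0.0531) and rho = 0.89 (permutation p = 0.00118, adjusted 0.0558). The correlation r was 0.75 without the 2 mice farthest from the median of Sqle, and neither value passed after adjustment.

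Mki67 was low throughout and highest in the liver with the highest Scd1. Mki67, a marker of cycling cells, measured 5.71 in WT_415, 3.76 in WT_429, 2.68 in WT_441 and 1.301 to 1.88 in the other 7, the same 3 livers that were highest for Scd1. On Mki67, 9 genes passed (0.074%), 7 positive and 2 negative, against 9 and 1 with library size alone. Of 15 other replication and mitosis genes tested only Top2a was called, and 7 had positive and 8 negative slopes, whereas with library size alone, which moved the median slope of all genes from -0.0046 to 0.134, 14 were positive. Among the 9 genes were Top2a, a topoisomerase of dividing cells (slope 1.40, SE 0.22, edgeR adjusted p = 0.04), and the fatty acid genes Scd1 (slope 1.498, SE 0.183, edgeR adjusted p = 0.0229), Elovl5, Fads1 and Elovl2. Scd1 was called in 6 of the 10 fits that leave out 1 mouse and none of the 9 in all of them. The count was 0 without WT_389, 2 without WT_390, 0 without WT_406, 2 without WT_407, 0 without WT_408, 2 without WT_415 and 51 without WT_441, and 65 without both muscle-high livers. Pcna, the replication clamp, was among the steady genes at 19.8 to 23.2 with a CV of 0.0473.

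Some genes of lobular zonation covaried with Asns, asparagine synthetase. Asns (chr6:7675171-7693182) measured 17.6 in WT_429, 11.5 in WT_441 and 8.19 in WT_415, and 1.75 to 4.80 in the other 7. These are the 3 livers with the lowest Mup share. Glul, glutamine synthetase of the innermost pericentral cells (chr1:153899945-153909714), measured 424, 423 and 445 in the same 3 and 639 to 916 in the others. Agxt, a peroxisomal aminotransferase, measured 596, 632 and 621 in the 3 and 318 to 405 in the others. Glul and Agxt thus separated these livers without overlap, but both passed the test on Asns, whose 3 highest livers these are. The split therefore follows in part from the choice of genes, and the share of all genes that make it is not given here. On Asns, 154 genes passed (1.27%), 68 positive and 86 negative, a split that turned to 165 positive and 63 negative with library size alone and to 199 and 84 without WT_429. All 17 pericentral genes had negative slopes, of which Glul (slope -0.40, SE 0.0627, edgeR adjusted p = 0.0208), Lect2 and Gulo passed. All 10 periportal genes had positive slopes, of which Hal, histidine ammonia-lyase (slope 0.28, SE 0.0602, edgeR adjusted p = 0.0419), and Hsd17b13 passed. Over all genes 49.4% had positive slopes on Asns. With library size alone 15 of the 17 pericentral slopes were negative and all 10 periportal ones positive. Of the 10 fits that leave out 1 mouse, Glul was called in 8, Lect2 in 7, Gulo and Hal in 3 each and Hsd17b13 in 1. Markers of other cell types also ran one way, with positive slopes for all 11 stellate cell and fibroblast markers (median 0.31) and all 10 sinusoidal endothelium markers (median 0.11), none of them called, and their part was not tested. Lepr, the leptin receptor, had the steepest slope of the genes called in all 10 fits that leave out 1 mouse (slope 1.31, SE 0.161, edgeR adjusted p = 0.0152), with 35.6 in WT_429. Asns is a target of the integrated stress response, and none of the 12 other genes of that list tested passed edgeR's test on it, while over all genes 1949 had an unadjusted p under 0.05 and DESeq2 called 588. Of the 154 genes 6 were called in all 10 fits, namely Abhd6, Agxt, Dnaic1, Lepr, Mmd2 and Uck1. The count was 28 without WT_406, 8 without WT_407, 56 without WT_408, 60 without WT_409, 19 without WT_415, 355 without WT_427, 283 without WT_429 and 19 without WT_441, and 7 without both muscle-high livers.

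Sex-biased genes were followed through Hsd3b5, a male-specific steroid enzyme of mouse liver. It measured 112 at the lowest, 168 at the median and 326 at the highest, with WT_408 highest and WT_429 lowest. On Hsd3b5, 3 genes passed (0.0247%), 2 positive and 1 negative (2 and 9 with library size alone), including the transporter Slc16a11 (slope 1.02, SE 0.146, edgeR adjusted p = 0.0454) and the cytosolic aminotransferase Got1 (slope -1.48, SE 0.203, edgeR adjusted p = 0.0454). Of 25 other male-biased genes 20 had positive slopes (median 0.36), against 49.6% over all genes. None was called by edgeR, with 1931 genes at an unadjusted p under 0.05 and 418 by DESeq2 over all genes. Other lists ran one way as strongly, with none of their genes called. Of 26 interferon-responsive genes 25 had positive slopes (median 0.70), and all 10 periportal and all 8 MHC class II genes had negative ones. None of the 3 genes was called in every fit that leaves out 1 mouse. The count was 0 without WT_389, 0 without WT_390, 0 without WT_406, 0 without WT_407, 11 without WT_408, 1 without WT_409, 0 without WT_415, 30 without WT_427 and 0 without WT_429, and 0 without both muscle-high livers. Of 22 female-biased genes measured, 8 reached a mean of 1. Cyp2c40 and Cyp2c69, which are near-copies whose fragments may be shared, were highest in WT_441, at 188 and 73.3 against at most 68.6 and 15.4 elsewhere. Abcd2, a peroxisomal transporter, was also highest in WT_441 at 25.2, and Cyp17a1 was highest in WT_429 at 54.1 with a lowest value of 4.83 in WT_406. In the growth hormone list, the feedback inhibitors Cish (3.20 to 56.4) and Socs2 (5.25 to 46.9) were both highest in WT_409, whereas the receptor Ghr was steady at 478 to 605.

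Acute phase genes, which respond to interleukin-6, spanned a moderate range. Saa1, serum amyloid A (chr7:46740499-46742980), measured 44.1 at the lowest, 258 at the median and 569 at the highest, with WT_429 highest, WT_406 next at 489 and WT_441 lowest. Its near-copy Saa2 was also highest in WT_429, at 199, and lowest in WT_441, at 20.4, and reads may be split between them. Socs3, a feedback inhibitor of the same pathway, reached 54.0 in WT_429 against 3.98 to 16.6 in the others, and the chemokine Cxcl1 249.6 against at most 74.3. Haptoglobin, Hp, had a rho of 0.95 with Saa1 and values of 2574 to 5675. Of 23 acute phase genes 21 had positive slopes on Saa1, against 49.7% over all genes. Other lists ran one way as strongly: all 25 cholesterol synthesis and all 8 MHC class II genes had negative slopes. Of 37 proteasome genes 33 had positive ones. On Saa1 edgeR called 0 genes, with 1013 at an unadjusted p under 0.05 and 52 by DESeq2. Left out, WT_406, WT_409 and WT_441 gave 4, 2 and 2 called genes.

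Some immediate early and heat shock genes were high in 1 or 2 mice. Fos measured 22.1 in WT_441 and 0.852 to 7.27 in the others, while the growth factor-induced Egr1 was highest in WT_406 at 166 and lowest in WT_427 at 14.2. Fos and Egr1 thus had different highest mice, although both were low in WT_389, WT_390 and WT_427. Hspa1b, an inducible heat shock protein, measured 106 in WT_427, 31.8 in WT_429 and 10.1 to 15.3 in the other 8. Its near-copy Hspa1a had the same 2 mice highest, and the constitutive mitochondrial chaperonin Hspe1 was steady at a CV of 0.0752.

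Hsd17b12, the gene floxed in all these mice, had a CV of 0.122 and was neither variable nor steady. Its order of mice placed WT_409 highest and WT_429 lowest, with WT_389, WT_415, WT_429 and WT_441 the lowest 4 at no more than 136 and the other 6 at 154 to 177. The other enzymes of its elongation cycle were about as even: Tecr, the reductase of the last step, ranged from 165 to 194, Hacd3, the dehydratase of the step before, from 142 to 197, and the elongase Elovl1 from 29.3 to 39.2. Elovl2 and Elovl5, elongases of polyunsaturated fatty acids, spread more widely, with CVs of 0.386 and 0.393. On Hsd17b12, 58 genes passed (0.477%), 29 positive and 29 negative, against 17 and 56 with library size alone. Because the anchor itself spans little, slopes on it are steep: Timp3, an inhibitor of matrix proteases, had -2.78 (SE 0.305) with edgeR adjusted p = 0.00759 and Asns -6.02 (SE 0.937). Of the 6 other elongation genes tested none was called by edgeR, while over all genes 2035 had an unadjusted p under 0.05 and DESeq2 called 629. The endothelial genes Lyve1 and Pecam1 passed with negative slopes, and all 10 sinusoidal endothelium markers had negative slopes with a median of -0.92. All 11 stellate cell and fibroblast markers (median -1.80), all 4 red blood cell markers (median -2.64) and 11 of 12 Kupffer cell and macrophage markers (median -0.70) also had negative slopes, none of them called. Over all genes 49.8% had positive slopes on Hsd17b12. The summed level of the 10 endothelial markers ranged from 203 to 382, highest in WT_441, and the part of these cell types was not tested. No gene was called in every fit that leaves out 1 mouse, and Timp3 was called in 9 of 10. The count was 155 without WT_389, 1 without WT_407, 0 without WT_408, 2 without WT_409, 1 without WT_415 and 29 positive and 94 negative without WT_429, and 111 without both muscle-high livers. Asns and Hsd17b12 had r = -0.86 (permutation p = 0.00138, adjusted 0.0531) and rho = -0.77 (permutation p = 0.013, adjusted 0.13), with r = -0.76 without the 2 mice farthest from the median of Asns. After adjustment none of the 66 anchor pairs passed, with 13 at an unadjusted p under 0.05 for r and 13 for rho.

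Over all 12475 genes the mice spread along several axes. The first principal component of log2(normalized value + 1) held 28.0% of the variance, the second 19.9% and the third 19.4%. On the first, WT_441 scored 31.7, WT_389 17.8, WT_415 15.2 and WT_429 11.1, WT_427 -7.92, and the 4 mice WT_406 to WT_409 -21.1 to -13.9. Acta1, Atp2a1 and Tnnt3 had its highest loadings and Mup17, Serpina12 and Moxd1 its lowest, so it joins the muscle and the Mup differences. Serpina12, the adipokine vaspin, measured 31.7, 14.2 and 3.39 in WT_415, WT_429 and WT_441 and 118 to 188 in the other 7. On the second component Lpin1, Ddit4 and Alas1 loaded highest, Fkbp5 was sixth, and Rpl29, Angptl8 and Egr1 among the lowest. On the third, Acta1, Atp2a1 and Tnnt3 again loaded highest, at 0.112, 0.101 and 0.0952, and WT_389 scored highest at 32.8. Dbp had its lowest loading, -0.075, smaller in size than those of the muscle genes.

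The first component also moved with library measures. The authors' scaling factor per mouse was taken relative to scaling by library size alone, so that depth is divided out, and ran from 1.02 to 1.27. Against this relative factor the first component had r = -0.87 (permutation p = 0.00068, adjusted over 10 relations 0.00355) and rho = -0.88 (permutation p = 0.00136, adjusted 0.0136), with r = -0.74 without the 2 mice farthest from the median. Against the share of the 10 most abundant genes it had r = 0.88 (permutation p = 0.00071, adjusted 0.00355) and rho = 0.83 (permutation p = 0.00501, adjusted 0.025), with r = 0.72 without the 2 farthest mice. The part of either measure in the component was not tested. Between pairs of mice, counts over all genes differed by a chi-square per degree of freedom of 13.7 (WT_408 and WT_409) to 272 (WT_409 and WT_441) over 45 pairs, so no pair agreed within counting error. WT_389 and WT_390 differed by 18.3, although only WT_389 was high in muscle genes. Of the 517 variable genes 128 (24.8%) were highest in WT_389, against 7.83% of all genes.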

How the data were processed

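Liver RNA of 20 mice was sequenced and the 10 WT libraries were used. Counts are fragments per gene as deposited, made with Rsubread on an mm10 RefSeq annotation per the file names, whereas HISAT2 2.0.5 and DESeq2 appear in the submitters' processing notes. No source used here gives the strand setting, so reads of overlapping antisense genes cannot be told apart. The deposited statistics show that fragments mapping to several places were counted. The normalized signal is, in the authors' deposited table, the count times 1 factor per mouse (largest relative deviation 5e-15), and the authors' RPKM is that signal per kilobase of gene. Of the deposited mapping and counting statistics 19 columns were not used, and the authors' knockout comparisons were not used.

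The members, the 27 gene lists, the 28 gene classes, the 14 marker lists and the 12 anchor genes were chosen with earlier results of these data known. Named genes are the 25 highest by RPKM, the 20 highest and 15 lowest by CV, the 10 widest gaps between mice, for each anchor the 5 highest and 3 lowest by rho (mean 5 or more), and up to 4 members of highest and 2 of lowest CV per list; predicted genes were left out. Others are named where a test called them, and Alas1, Angptl8, Arntl, Cxcl1, Hacd3, Hbb-b1, Moxd1, Mup17, Nr0b2, Nr1d1, Rgs5 and Serpina12, with Clock, Nfil3 and Per2 in a plot, after their values were seen. Slopes used edgeR 4.0.16 (quasi-likelihood, filterByExpr, TMM) with Benjamini-Hochberg adjustment, in R 4.3.3, with DESeq2 1.42.0 as an alternative, and correlations used 100000 permutations (scipy 1.17.1). Tests were checked on simulated counts with known changes: with slopes on Dbp, 23 of 50 genes changed 2-fold over its range, 45 of 50 changed 4-fold and 50 of 50 changed 8-fold were called among 12016 genes. Depth of 19676907 to 29124124 assigned fragments covers counting error only. Promoter letters came from RefSeq windows (GRCm38.p6). Replicates are separate mice. The p-values of slopes and correlations rest on the spread between them, and those of the index of dispersion on Poisson counting error. One result is not reported here.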

Additional observations from a re-analysis of the deposited data

Results flagged for a closer look

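In 53 of the 279 per-mouse values checked (19.0%), the highest or the lowest mouse was separated from the nearest other mouse by a share of the whole range above Dixon's 95% critical value for 10 values. Chance flags about 1 in 20 groups, but many genes checked were named for a high CV or a wide gap in these same mice. The share flagged therefore cannot be set against that rate, and genes of a shared origin are not independent. All values below are normalized values of the mouse named.

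In WT_389 the summed skeletal muscle markers stood apart at 764. The muscle genes that stood apart there were Myh8 23.1, Myl3 9.76, Myh1 93.8, Pvalb 18.3, Tnnt3 103, Tcap 18.3, Tnnc2 56.6, Myot 11.95, Mb 69.7, Tnni2 48.7, Ckm 61.7, Acta1 247, Atp2a1 137, Xirp2 15.2, Myl1 30.6, Ttn 81.9, Myoz1 8.58 and Myh4 71.9. Also highest in WT_389 were Cox6a2 9.88, Eef1a2 17.7, Pdk4 39.8, Fabp3 9.64, Cryab 9.92 and Cox7a1 4.02, which muscle is known to express or, for Cryab, which is a small heat shock protein of muscle and lens.

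In WT_415 the summed T and NK cell markers stood at 23.1. The desaturases Scd1 and Scd2 were 13893 and 9.62, the hormone Fgf21 4.88, the immediate early gene Nr4a1 17.4, and the cell cycle genes Ccna2, Top2a and Cdc20 2.67, 4.10 and 3.18. The interferon-responsive Cxcl10 and Gbp2 were 11.2 and 12.8, and H2-DMa, of MHC class II peptide loading, 6.17.

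In WT_427 the heat shock genes Hspa1b and Hspa1a, near-copies of each other, were 106 and 8.77, the chaperone Dnajb9 83.8, the sterol enzyme Mvd 14.4 and the transporter Slco1a1 565. In WT_429 Socs3 was 54.0, Ciart 12.02 and the glycogen-targeting subunit Ppp1r3g 16.7. In WT_441 Cyp2c40 was 188, Cyp2c69 73.3, the fatty acid hydroxylase Cyp4a14 233, the lipoprotein receptor Vldlr 8.42 and Fos 22.1, and histone genes held their lowest share of assigned fragments, 0.0371%. In WT_407 Xlr4a was 13.1 and Cyp2a5, coumarin hydroxylase, 455, and in WT_406 the mitochondrially encoded COX3 was 13383.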

How the results depend on the processing

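No paired analysis was possible because each mouse number belongs to 1 mouse and no second group enters a comparison. Each of the 12 covariation counts, the spread counts, the first component and the class shares was recomputed under each alternative. With 1 mouse left out, variable genes numbered 485 to 568, steady genes 2661 to 3085, genes beyond counting error 10992 to 11279 and the first component's share 27.4% to 32.2%, while the Mup, albumin and mitochondrial shares were 9.47% to 11.1%, 4.90% to 5.27% and 8.92% to 9.29%. Covariation counts ranged over these fits from 0 to 30 for Hsd3b5, 0 to 4 for Saa1, 1 to 23 for Dbp, 0 to 0 for Sqle, 0 to 4 for Fasn, 16 to 54 for Pdk4, 8 to 355 for Asns, 0 to 51 for Mki67, 17 to 163 for Ifit1, 8 to 256 for Cd74, 56 to 215 for Cyp7a1 and 0 to 155 for Hsd17b12. DESeq2's Wald test called 418 genes on Hsd3b5, 52 on Saa1, 197 on Dbp, 34 on Sqle, 233 on Fasn, 88 on Pdk4, 588 on Asns, 262 on Mki67, 687 on Ifit1, 443 on Cd74, 618 on Cyp7a1 and 629 on Hsd17b12, and the cause of these higher counts was not tested. Without both muscle-high livers, an alternative chosen after seeing the data, with fewer samples, edgeR called 0 on Hsd3b5, 1 on Saa1, 1 on Dbp, 0 on Pdk4, 7 on Asns, 65 on Mki67, 29 on Ifit1, 6 on Cd74, 91 on Cyp7a1 and 111 on Hsd17b12. With library size alone as scaling the counts were 11 on Hsd3b5, 6 on Dbp, 817 on Ifit1 and 223 on Cd74, and the majority sign of the calls turned on Hsd3b5, Dbp, Asns, Ifit1 and Cyp7a1; it also turned on these 5 and on Mki67 under at least 1 other alternative, such as DESeq2 on Mki67 (117 positive, 145 negative) and leaving out WT_441 on Cyp7a1 (105 and 110). That scaling moved the median slope of all genes by over 0.1 on Mki67 and on Hsd17b12 (-0.0030 to -0.348). With the rank of the anchor they were 18 on Hsd3b5, 7 on Pdk4, 25 on Asns, 1 on Mki67, 50 on Ifit1 and 100 on Cyp7a1. With every gene above 0 tested they were 8 on Hsd3b5, 2 on Fasn and 222 on Pdk4, and with genes of at least 1 CPM in all mice 6 on Dbp and 15 on Pdk4. Variable genes numbered 6873 with no filter on low values and 160 at a mean of 10 or more. The first component held 30.8% with a pseudocount of 0.1, 34.4% over the 1000 genes of highest variance, 32.6% with library size alone and 34.1% without both muscle-high livers. By summed RPKM the Mup, albumin and mitochondrial shares were 16.3%, 3.85% and 14.1%. The causes of these moves were not tested. Covariation counts therefore depend on the test, on single mice and, in their sign, on the scaling. Low CVs depend on the scaling, while all 20 of the highest CVs stayed within 1.5 times under library size alone. Depth limits genes near a normalized value of 1, where counting error is a large part of the CV.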

Other observations

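Several gene groups not described above had median CVs of 0.178 to 0.255, above the 0.153 of all genes, with 0 to 2 variable members each against 4.14% over all genes. Of 19 xenobiotic P450 genes of mean 1 or more none was variable and 2 were steady, and the epoxygenase Cyp2j5 lay between 535 and 689.7, whereas Cyp3a11, the main bile acid and drug hydroxylase, lay between 150.5 in WT_441 and 452 in WT_390. None of 9 urea cycle genes was variable or steady. Otc, ornithine transcarbamylase, ranged from 451 to 609.7, and Asl, argininosuccinate lyase, from 469 to 1040.3, highest in WT_390. The ferritin heavy chain Fth1 was steady at 1243 to 1446, and in the same iron list Id1, a target of the hepcidin-inducing BMP signal, ranged from 3.47 to 29.4.

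Endoplasmic reticulum folding genes had a median CV of 0.220 with 1 of 20 variable. Derl3, of protein retrotranslocation, was highest in WT_409 at 19.4, as were Creld2 at 96.3 and Sdf2l1 at 76.2, whereas Canx, calnexin, lay between 239 and 295. Of 20 bile acid genes of mean 1 or more 2 were variable, Cyp7a1 and the transporter Slco1a4 (5.20 to 41.8), and Slc27a5, the bile acid-CoA synthetase, was steady at 705 to 847. Of 16 NRF2 targets 1 was variable, Gsta1 at 0.824 to 6.54, a gene with near-copies.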
